A study of Homo sapiens and synthetic construct with 14 samples.

Results

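The comparison set reporter RNA from GM12878 cells, an Epstein-Barr virus transformed B lymphoblastoid line, against reporter RNA from HepG2 cells, a line derived from a liver tumour, for 1 library of designed sequences. Each construct pairs 1 of 5 enhancers (En02, En09, En11, En19 and En21) with 1 test element in the silencer position of a GFP reporter, and its abundance is read as barcode counts. Constructs were matched by their name between the lines and kept where the mean plasmid count was at least 20, and versions that carry the reference allele of a tested variant were left out. Of 116831 such constructs with counts, 112451 entered the comparison. They hold 23254 elements, of which 21378 were measured beside all 5 enhancers.

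Both lines were electroporated with the same plasmid pool, recovered for 24 hours, and gave GFP mRNA captured on beads. The series gives 4 biological replicates per line, and the same 4 plasmid counts serve both lines. The reporters are transient plasmids outside the chromosomes, each group is 1 cell line, and no gene of the cells themselves was measured, so the identity of the lines could not be checked against markers. The labels do not say whether replicates came from separate cultures, so each p-value measures the spread between these libraries.

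RE1 is the DNA motif bound by the repressor REST, which recruits corepressor complexes and is best known for keeping neuronal genes silent in non-neuronal cells. B cells and liver cells are both non-neuronal and both express REST, but they use different sets of transcriptional activators. The library holds native windows of 200 bases with an RE1 motif (7511 measured beside all 5 enhancers) and windows without one (3951). It also holds versions of motif windows with a scrambled motif (5199), versions that carry an alternate allele (3495), positive controls (86), random sequences (721) and negative controls (415). Window positions below are those in the element names. Neither the labels nor the file headers name a build for these positions, so no gene or sequence is assigned to them.

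The level of an element is log2 of its RNA count plus 1, over the summed count of the random and negative control elements beside the same enhancer in the same library, less the same ratio in plasmid, averaged over the 5 enhancers. A level of 0 therefore equals the summed controls. The typical control lay below it: the median random sequence stood at -0.34 in GM12878 and -0.54 in HepG2, and the median negative control at -0.79 and -0.98. Differences are HepG2 minus GM12878 on this log2 scale. Depth ran from 55804142 to 63058060 counts per library in GM12878 and from 53644322 to 81755607 in HepG2, and 1.82% to 7.72% of constructs were at 0 in a library. Replicates of GM12878 resembled one another less (Pearson r of log2 counts across constructs 0.812 to 0.865) than replicates of HepG2 did (0.912 to 0.948). Beside En02 and En11 the median counts were low, at 72.5 and 48.5 in GM12878 and 40 and 28 in HepG2, against 332 to 722.5 beside the other 3 enhancers.

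The enhancers themselves ran differently in the 2 lines. Output was taken as log2 of the share of RNA counts held by control elements beside an enhancer over the same share in plasmid. En19 gave 0.41 ± 0.05 (SD, n = 4) in GM12878 and -0.62 ± 0.05 in HepG2, so it fell by 1.03 and stood below En09 there. En21 gave 0.73 ± 0.03 in GM12878 and 1.28 ± 0.02 in HepG2, the highest output in both lines. En02 and En11 were the lowest in both, at -2.16 ± 0.05 and -1.77 ± 0.11 in GM12878 and -2.67 ± 0.09 and -2.38 ± 0.09 in HepG2. En09 moved least, from -0.26 ± 0.04 to -0.14 ± 0.05. For each of the 5 enhancers the 4 HepG2 libraries did not overlap the 4 GM12878 libraries, which gives the smallest p that 4 against 4 allows (two-sided exact permutation test, p = 0.0286, adjusted p = 0.0286 over 5 enhancers). These are shares that sum to a fixed total, so a rise in 1 enhancer lowers the others. With all constructs in place of the controls, En02 differed by 0.086 in place of -0.51 and En11 by -0.093 in place of -0.60, and with negative controls only, En09 differed by -0.090 in place of 0.12.

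Element by element, many sequences drove different RNA levels in B cells and liver cells once the enhancers had been set level. edgeR's quasi-likelihood test called 33254 constructs, 29.6% of those tested, with 17900 higher in HepG2 (15.9%) and 15354 lower (13.7%), at an adjusted p under 0.05. With all 16 RNA libraries in the fit the lower calls numbered 24102 and the higher calls 23681. Of the construct calls 53.8% were higher as given, 64.5% with the median of the controls, 48.3% with random sequences only and 74.7% with negative controls only. En19 had the largest share of its constructs called, 48.2% of 22738, against 30.0% beside En09, 26.0% beside En02, 24.0% beside En21 and 19.1% beside En11. The change in output was -1.03 for En19, 0.12 for En09, -0.51 for En02, 0.55 for En21 and -0.60 for En11. Counts differed between enhancers too. The part of output and of counts in these shares was not tested. Over the mean of the 5 enhancers, limma called 8435 of 21378 elements, 39.5%, with 4383 higher in HepG2 (20.5%) and 4052 lower (19.0%). The 4 HepG2 libraries did not overlap the 4 GM12878 libraries in 40.1% of elements. The split between higher and lower moves with the controls used for scaling: 52.0% of calls were higher as given, 61.4% with the median of the controls, 45.9% with random sequences only, 74.6% with negative controls only and 63.3% with the median of all elements. The median difference of all elements was -0.09 as given, 0.03 with the median of the controls, -0.16 with random sequences only, 0.22 with negative controls only and 0.06 with all elements, so small differences have no settled sign.

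The median size among the 4383 elements higher in HepG2 was 0.96, with 2022 over 1, 280 over 2 and 54 over 3. Among the 4052 lower elements it was 1.04, with 2147 over 1, 328 over 2 and 48 over 3. The sign was the same beside all 5 enhancers for 63.6% of the higher and 57.0% of the lower elements. Elements called higher had a median level of 0.11 in GM12878 and 1.16 in HepG2. The same elements stood at 0.66 in K562, a myeloid leukaemia line, and at 0.64 in SK-N-SH, a neuroblastoma line, both tested with the same library. Elements called lower stood at -0.43 in GM12878 and -1.40 in HepG2, with -1.39 in K562 and -1.34 in SK-N-SH. For the lower elements K562 and SK-N-SH stood near HepG2, and for the higher ones they lay between the compared lines. These elements were chosen on the compared lines, and no test was made of the other 2.

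Levels were also spread more widely in HepG2. From the part of the variation that replicates share, the SD of element levels was 1.36 in HepG2 and 0.90 in GM12878, and the lines correlated at r = 0.82 over 21378 elements (across elements that share libraries and depth, so with no p). The wider spread in HepG2 was found beside En02 (1.95 against 1.11), En11 (1.83 against 1.05), En19 (1.44 against 1.03) and En09 (1.15 against 0.93), but not beside En21 (1.04 in both lines). Windows without an RE1 motif were the class whose levels were least alike between the lines, at r = 0.55 over 3951 windows, against 0.87 for motif windows, 0.87 for scrambled versions, 0.89 for alternate-allele versions and 0.88 for random sequences. The difference of an element beside 1 enhancer tracked its difference beside another to an unequal degree. Over 21378 elements r ran from 0.28 between En11 and En21 to 0.65 between En02 and En11, and these points share the same 8 libraries.

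By class, windows without the motif were called most often among the native and derived windows. Of 3951 such windows, 1139 were higher in HepG2 (28.8%) and 757 lower (19.2%). Of 7511 motif windows, 1432 were higher (19.1%) and 1638 lower (21.8%). The split was the other way round for scrambled versions, with 1031 of 5199 scrambled versions higher (19.8%) and 759 lower (14.6%), and like that of the motif windows for alternate-allele versions, 656 of 3495 higher and 757 lower. Random sequences were called in 22.1% and negative controls in 10.6%. The share of calls that were higher was larger for windows without the motif than for motif windows under each of the 5 scalings, 60.1% against 46.6% as given and 76.9% against 69.5% with negative controls only, and that of scrambled versions (57.6% as given) was also above that of motif windows under each. This order was not seen beside each enhancer. Beside En09, 691 windows without the motif were called higher and 785 lower, against 1426 and 888 motif windows, and beside En21 the counts were 593 and 551 against 1023 and 784. Scrambled versions, too, had a smaller share of higher calls than motif windows there, with 885 higher and 838 lower beside En09 and 650 and 626 beside En21. Of 86 positive controls, 44 were called higher and 19 lower.

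Class medians gave the same order. The median of the motif windows was -0.45 ± 0.04 (SD, n = 4) in GM12878 and -0.65 ± 0.06 in HepG2, that of windows without the motif -0.19 ± 0.04 and -0.17 ± 0.04, and that of scrambled versions -0.22 ± 0.04 and -0.35 ± 0.05. The differences of motif windows (-0.20), scrambled versions (-0.13) and alternate-allele versions (-0.18) each had an adjusted p of 0.0357 in the exact permutation test. The controls used for scaling shifted as much: the median random sequence differed by -0.21 and the median negative control by -0.20. These 2 were not tested, and the lower medians of the 3 classes are thus no larger than the shift of the controls. The differences of the 3 classes all turned positive when each library was centred on its median control level or when only negative controls were used. The median scaling of the calls above was another one, the median ratio of each control to its mean over the libraries. Under it the median differences over elements were -0.039 for motif windows, -0.033 for alternate-allele versions and 0.072 for scrambled versions. As given they were -0.16, -0.15 and -0.048. A few controls carried much of the summed control count in HepG2: the 10 largest held 21.4% of it beside En02 and 15.9% beside En11, against 9.26% and 6.38% in GM12878 and 3.26% and 3.30% in plasmid. Their part in the class medians was not tested.

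The distance between 2 classes within a library does not depend on the scaling. Windows without the motif stood above motif windows by 0.25 ± 0.01 in GM12878 and by 0.47 ± 0.03 in HepG2, a difference of 0.22. Scrambled versions stood above motif windows by 0.23 ± 0.01 and 0.30 ± 0.02, a difference of 0.07. Positive controls stood above motif windows by 1.93 ± 0.04 and 2.62 ± 0.08, a difference of 0.69. In these 3 contrasts every HepG2 library exceeded every GM12878 library (two-sided exact permutation test, p = 0.0286, the smallest possible, adjusted p = 0.0571 over 6 contrasts). The contrasts of alternate alleles (difference 0.02), random sequences (-0.01) and negative controls (0.0008) against motif windows had exact permutation p-values of 0.143, 0.629 and 1. At a plasmid minimum of 100 the first 3 contrasts had an adjusted exact permutation p of 0.0429, and the contrast of negative controls turned to -0.090 with the same adjusted p. These contrasts were added after the class medians had been seen.

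The widening of the first 2 contrasts in HepG2 belonged to 3 of the 5 enhancers. Beside En02 windows without the motif stood above motif windows by 0.35 ± 0.04 (SD, n = 4) in GM12878 and 0.85 ± 0.01 in HepG2, and beside En11 by 0.26 ± 0.03 and 0.79 ± 0.02, both at low counts. Beside En19 the distance grew from 0.30 ± 0.01 to 0.43 ± 0.02. Beside En09 it shrank from 0.18 ± 0.01 to 0.11 ± 0.01, and beside En21 from 0.12 ± 0.02 to 0.075 ± 0.009. Scrambled versions followed the same order, with differences between lines of 0.23 beside En02, 0.30 beside En11 and 0.037 beside En19 against -0.064 beside En09 and -0.063 beside En21. These values by enhancer are given with no test.

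Among the 12 named elements with the largest rise in HepG2, 8 were windows without an RE1 motif, 3 were native motif windows and 1 was a scrambled version. The motif window chr20:31133033-31133233 had levels of -1.87, -2.03, -2.75 and -1.09 in the GM12878 libraries and 2.27, 2.16, 2.07 and 1.87 in the HepG2 libraries. All HepG2 libraries lay above the summed controls and all GM12878 libraries far below them, with a difference of 4.03 ± 0.31 (SE, 16.3-fold, adjusted p = 3.9e-05). By edgeR on counts summed over the enhancers, which does not level the enhancers, it was 2.51 (5.68-fold). Without En02 and En11 it was 2.11 (4.32-fold). Its difference varied widely with the enhancer, from 7.76 beside En02, 4.83 beside En11 and 3.19 beside En19 to 1.62 beside En21 and 1.54 beside En09. Beside En02 its counts were 0, 0, 0 and 10 in GM12878 against 553, 424, 442 and 367 in HepG2, so the size there rests on near-empty counts. K562 and SK-N-SH had levels of -1.77 and -2.56, both near GM12878. Its scrambled version, also called higher in HepG2, stood at 0.39 in GM12878 and 1.58 in HepG2.

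The motif window chr10:105554031-105554231 stood at -0.21, -0.27, -0.55 and -0.92 in GM12878 and at 3.31, 3.05, 3.02 and 3.04 in HepG2, with no overlap. Its difference was 3.60 ± 0.18 (12.1-fold), from 2.28 beside En21 to 4.79 beside En02, and K562 (-0.89) and SK-N-SH (-0.99) stood near GM12878. Its scrambled version also rose, from -1.24 to 1.48, so the rise was seen with the scrambled motif too. The remaining native motif window among them, chr9:73085437-73085637, went from -1.48 ± 0.83 (SD, n = 4) to 1.76 ± 0.12, a difference of 3.24 that was 1.94 by edgeR on summed counts and 1.64 without En02 and En11. The scrambled version of chr19:42069812-42070012 went from -1.23 ± 0.74 to 2.37 ± 0.17, and the alternate-allele version of that window differed by 3.10 in the same direction.

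The 8 windows without the motif include some that were close to the summed controls in GM12878 and strong in HepG2. The window chr9:126985733-126985933 stood at -0.08, 0.24, 0.08 and 0.28 in GM12878 and at 3.41, 3.37, 3.38 and 3.38 in HepG2. The window chr19:33767024-33767224 stood at -0.15, -0.26, -0.23 and -0.09 in GM12878 and at 3.14, 3.01, 3.14 and 3.06 in HepG2. In both windows the replicates of each line lay close together, and the differences were 3.25 ± 0.12 (SE, 9.54-fold) and 3.27 ± 0.11 (9.64-fold), each with an adjusted p of 4.7e-06. K562 and SK-N-SH had 0.74 and 0.38 for the first and -0.41 and -0.64 for the second, well below HepG2. The windows chr1:121263953-121264153, chr3:57436613-57436813, chr3:159504985-159505185, chr10:105358658-105358858, chr10:29228932-29229132 and chr14:23445967-23446167 differed by 3.61, 3.42, 3.38, 3.31, 3.20 and 3.20. For chr10:105358658-105358858 and chr3:159504985-159505185 the GM12878 libraries spread widely (SD 0.99 and 0.96), and each was called beside 4 of the 5 enhancers. The other 10 elements of the 12 were called beside all 5. By edgeR on summed counts the difference was 2.13 at chr9:126985733-126985933, 2.07 at chr10:105358658-105358858 and 2.11 at chr14:23445967-23446167. Without En02 and En11 it was 2.05 at chr9:126985733-126985933, 2.25 at chr3:159504985-159505185 and 2.21 at chr3:57436613-57436813.

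The 12 named elements lower in HepG2 fall into sequences that were active in GM12878 and sequences already below the controls there that fell much further in HepG2. The first kind is 6 windows without the motif. The window chr11:35148098-35148298 stood at 3.61, 3.41, 3.79 and 3.78 in GM12878 and at -0.75, -0.80, -0.90 and -1.48 in HepG2, a difference of -4.63 ± 0.19 (SE, 24.8-fold lower, adjusted p = 4.7e-06). It was thus among the more active elements in GM12878 and below the summed controls in HepG2, and also in K562 (-1.63) and SK-N-SH (-0.55). The window chr21:42798043-42798243 was very active in both lines, at 5.49, 5.47, 5.67 and 5.55 in GM12878 and 2.21, 2.22, 2.29 and 2.14 in HepG2, and stood at 2.68 in K562 and 4.07 in SK-N-SH. Its difference of -3.33 ± 0.11 was the most even of these over enhancers, from -2.68 beside En21 to -3.79 beside En02. The windows chr18:60828338-60828538 (2.30 ± 0.15 to -1.61 ± 0.23, SD, n = 4), chr6:91183620-91183820 (2.42 ± 0.25 to -1.13 ± 0.58) and chr4:154443935-154444135 (1.49 ± 0.10 to -1.70 ± 0.51) followed the pattern of the first. The window chr12:16942427-16942627 went from 0.91 ± 0.33 to -2.58 ± 0.70, and its difference of -3.49 was -2.18 without En02 and En11.

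The second kind comes from RE1 loci. The motif window chr19:50490447-50490647 stood at -1.28, -1.02, -1.24 and -1.35 in GM12878 and at -5.61, -6.29, -6.55 and -6.30 in HepG2, a difference of -4.96 ± 0.21 (SE, 31.2-fold lower, adjusted p = 4.7e-06), the largest of all 24 named elements. RNA was already below the controls in GM12878 and close to the counting floor in HepG2, where the counts beside En19 were 23, 1, 2 and 0 against 282, 628, 426 and 457 in GM12878. K562 (-5.08) and SK-N-SH (-6.00) resembled HepG2. All 8 alternate-allele versions of this window were called lower too, with differences from -4.28 to -2.10. The scrambled version fell as well, from -1.20 ± 0.22 (SD, n = 4) to -4.42 ± 0.36, so the scrambled version had a difference of -3.22, which was -1.66 by edgeR on summed counts. Beside En09 the construct with the largest fall was an alternate-allele version of the same window, with 1062, 1234, 1615 and 813 counts in GM12878 and 164, 109, 79 and 107 in HepG2.

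The overlapping windows chr11:66189171-66189371 and chr11:66189088-66189288 fell from -1.98 ± 0.26 (SD, n = 4) to -5.66 ± 0.35 and from -1.40 ± 0.25 to -4.63 ± 0.23. They share bases, so they are not independent. Their 3 alternate-allele versions were all called lower (-3.27 to -3.18), and the scrambled versions differed by -3.15 and -1.91. The motif window chr11:70496525-70496725 fell from -1.70 ± 0.62 to -5.14 ± 0.69, with its 4 alternate-allele versions called lower and its scrambled version at -1.47. An alternate-allele version of the window chr9:138863922-138864122 fell from -1.67 ± 0.12 to -5.08 ± 0.70. In all of these K562 stood between -4.86 and -4.48 and SK-N-SH between -4.68 and -3.96, which is the side of HepG2. By edgeR on summed counts the difference was -1.86 at chr11:66189088-66189288 and -2.15 for the version of chr9:138863922-138864122.

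Single constructs showed the same elements and added others. The 25 constructs with the largest rise, 5 per enhancer, came from 21 elements, and the 25 with the largest fall from 22. Beside En19 the window without the motif chr4:155519279-155519479 had 119, 213, 31 and 89 counts in GM12878 and 3077, 1961, 1747 and 2021 in HepG2, a difference of 5.12 ± 0.36 (SE). Beside En21 the window without the motif chr1:195164647-195164847 had 172, 156, 232 and 239 counts against 6514, 4585, 3912 and 4536 (3.91 ± 0.12). Beside En09 the window without the motif chr10:60833391-60833591 had 318, 505, 308 and 216 counts against 5613, 4123, 2967 and 3853 (3.32 ± 0.20). All 3 pairs of count ranges are far apart. The GM12878 counts of the construct beside En19 were scattered and went down to 31, against a median count of 668.5 beside En19 in GM12878.

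Beside the weak enhancers the largest falls ended at 0. The motif window chr16:19319027-19319227 beside En02 had 223, 72, 161 and 54 counts in GM12878 and 0 in all 4 HepG2 libraries, at least 28.2-fold lower when each empty library is set to a floor of 3 counts. An alternate-allele version of chr4:1404285-1404485 beside En11 had 192, 286, 104 and 55 counts in GM12878 and 0 in all 4 HepG2 libraries, at least 32.3-fold lower by the same floor. Beside En11 the window without the motif chrX:11971783-11971983 rose from 22, 12, 10 and 8 counts to 845, 619, 332 and 395 (5.81 ± 0.37, SE). Floors cover counting error only, and barcode reads are not independent molecules.

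Versions of a window that share most of its bases tended to move together, but most scrambled versions of native windows lower in HepG2 were not called lower. The difference between lines in 3278 alternate-allele versions correlated with that of their native window at r = 0.85, and in 4886 scrambled versions at r = 0.66, over elements that share libraries. The 1031 pairs of overlapping native windows (median overlap 141 bases) had r = 0.66, and in 280 of the 295 pairs with both windows called the call was the same. Over all elements, 20.5% were called higher and 19.0% lower. Calls in the scrambled versions were counted by the call of their native window. Where the native motif window was higher in HepG2, 658 of 892 scrambled versions were also called higher (73.8%, against 19.8% of all scrambled versions). Where the native window was lower in HepG2, 409 of 1132 scrambled versions were also called lower (36.1%, against 14.6% of all). For alternate alleles the shares were 509 of 614 (82.9%, against 18.8% of all alternate-allele versions) and 460 of 768 (59.9%, against 21.7% of all). The scrambled versions of the windows lower in HepG2 had a median difference of -0.44 against -1.15 for the native windows. Both values of a pair come from the same libraries, the difference between these shares was not tested, and they were counted under 1 scaling only.

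The effect of the RE1 motif itself was read as the level of the native window minus that of its own scrambled version, so that negative values are silencing by the intact motif. The median over 4886 loci was -0.190, -0.178, -0.178 and -0.176 in GM12878 and -0.216, -0.227, -0.231 and -0.257 in HepG2. The groups do not overlap, and the difference was -0.052 (HepG2 minus GM12878, two-sided exact permutation test, p = 0.0286, adjusted p = 0.0286 over 6 medians). It was below 0 at 65.7% of loci in GM12878 and 67.8% in HepG2. Without En11 the difference of the medians was -0.013, with an adjusted exact permutation p of 0.114.

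The motif effect changed in opposite directions beside different enhancers. Beside En02 the median went from -0.135 ± 0.038 (SD, n = 4) in GM12878 to -0.332 ± 0.022 in HepG2, and beside En11 from -0.107 ± 0.034 to -0.348 ± 0.0064. Native windows thus stood further below their scrambled versions in the liver line. Beside En19, too, this distance grew, from -0.189 ± 0.0078 to -0.229 ± 0.015. Beside En09 the median went from -0.200 ± 0.0032 to -0.146 ± 0.0034 and beside En21 from -0.171 ± 0.0046 to -0.120 ± 0.0070, so the distance was smaller in the liver line. In each of the 5 the 4 HepG2 libraries lay on 1 side of all 4 GM12878 libraries (exact permutation p = 0.0286, adjusted p = 0.0286). The order of the enhancers by motif effect was thus nearly turned round: En09 had the largest effect in GM12878 and En11 in HepG2. Beside En02 and En11 counts were low, and 20.6% and 30.1% of constructs had a 0 in at least 1 GM12878 library (21.3% and 28.8% in HepG2). Levels of all constructs were also spread more widely in HepG2 beside En02 (SD 1.95 against 1.11) and En11 (1.83 against 1.05). The same held beside En19 (1.44 against 1.03) and En09 (1.15 against 0.93), but not beside En21. The part of the zeros and of this spread in the shift was not tested.

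At single loci limma called a different motif effect in 390 of 4886, 7.98%, with 298 lower in HepG2 (6.10%) and 92 higher (1.88%). The count depended on the HepG2 libraries: it was 170 without HepG2 replicate 1, 201 without replicate 2, 204 without replicate 3 and 233 without replicate 4, and it was 164 without En02 and 218 without En19. The 298 loci with a lower motif effect in HepG2 had a median effect of -0.60 in GM12878 and -2.18 in HepG2. K562 stood at -1.75 and SK-N-SH at -1.91. Of these loci 247 were below 0 in GM12878 and 292 in HepG2. The native window was called lower at 216 of the 298 (21.8% of all motif windows were), and the scrambled version was called higher at 108 (19.8% of all scrambled versions were). The loci were chosen on the native level minus the scrambled level, which favours both calls, so these counts are a description. The median native level fell from -0.85 to -2.15, and the median scrambled level went from -0.22 to 0.12. The 92 loci on the other side had medians of -0.17 in GM12878 and 0.90 in HepG2. The native window was called higher at 77 of them (19.1% of all motif windows were), which the same choice favours.

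Among the 6 named loci with a lower motif effect in HepG2, chr12:110174534-110174734 and chr19:46455898-46456098 were lower with the intact motif in both lines. The first had motif effects of -0.91, -1.37, -1.08 and -1.70 in GM12878 and -4.16, -4.13, -3.77 and -4.59 in HepG2, a difference of -2.90 ± 0.25 (SE, adjusted p = 0.0014). The second had -0.77, -1.48, -0.23 and -0.93 against -3.73, -2.99, -3.55 and -4.66, a difference of -2.88 ± 0.39 (adjusted p = 0.0052). At both the scrambled version stood near 0 in HepG2 (-0.14 and 0.06), above the median random sequence (-0.54) and negative control (-0.98) there, and the native window fell to -4.30 and -3.67. K562 (-3.91 and -3.06) and SK-N-SH (-4.27 and -2.84) had motif effects close to those of HepG2.

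At the other 4 loci the GM12878 libraries lay on both sides of 0. The locus chr3:44574417-44574617 had effects of 0.39, 0.28, 0.94 and -1.18 in GM12878 and -3.49, -3.14, -3.97 and -4.45 in HepG2, the largest difference, -3.87 ± 0.47 (adjusted p = 0.0039). The locus chr2:21125125-21125325 had 0.48, 0.08, 0.92 and -0.03 against -3.54, -3.08, -2.11 and -2.93 (-3.28 ± 0.34). Each HepG2 library was far below 0 at both loci. At both loci the scrambled version was also low in GM12878, at -1.43 and -1.36, and at -0.11 and -0.01 in HepG2. The locus chr1:170084155-170084355 differed by -3.34 ± 0.56 at a lowest plasmid mean of 23.75 counts. There the native window went from -2.29 in GM12878 to -3.07 in HepG2 and the scrambled version from -2.39 to 0.17. The larger change was thus in the scrambled version. The limma adjusted p of this locus rose to 0.0501 without En21. The locus chr3:68355810-68356010 differed by -3.18 ± 0.54, and by -1.85 with an adjusted p of 0.107 without En02.

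The 6 named loci with a higher motif effect in HepG2 were chosen for a rise of the native level relative to the scrambled level. At all 6 the native level was higher in HepG2, which that choice favours. Scrambled versions moved either way, such as from -1.16 to -1.76 at chr2:191871808-191872008 and from -1.21 to -0.28 at chr11:95832061-95832261. The locus chr10:6321581-6321781 had effects of -0.33, -0.88, 0.04 and 0.04 in GM12878 and 3.52, 2.93, 3.44 and 2.83 in HepG2, a difference of 3.46 ± 0.27 (SE, adjusted p = 0.0011). Its native window went from -1.08 to 2.06 and its scrambled version from -0.80 to -1.12. At chr20:31133033-31133233, the window described above, the native window stood below its scrambled version in GM12878 (-2.24, -2.02, -3.34 and -1.72) and above it in HepG2 (0.66, 0.47, 0.44 and 0.48), a difference of 2.84 ± 0.33. The loci chr2:109039982-109040182 and chr20:30301174-30301374 differed by 2.45 ± 0.42 and 1.99 ± 0.25. The first was not called without En02 (adjusted p = 0.113). The loci chr2:191871808-191872008 (2.22 ± 0.44, lowest plasmid mean 22.5 counts) and chr11:95832061-95832261 (1.98 ± 0.38) lost their call in 4 of 17 alternatives each.

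Elements filed as positive controls were mostly more active in HepG2. Their median level was 1.48 ± 0.06 (SD, n = 4) in GM12878 and 1.97 ± 0.04 in HepG2 (exact permutation p = 0.0286, adjusted p = 0.0357), and the rise held under each scaling. This again depended on the enhancer: the median difference was 0.77 beside En02, 0.87 beside En11 and 0.49 beside En19, but -0.06 beside En09 and -0.16 beside En21. The control at chr6:29910276 had 2.56, 2.69, 2.65 and 2.75 in GM12878 and 4.37, 4.29, 4.44 and 4.34 in HepG2, the largest rise (1.70 ± 0.11, SE). Those at chr4:68567025, chr19:50501185 and chr1:111838694 rose by 1.45, 1.44 and 1.43. The control at chr6:27694516 went the other way, from 2.02, 2.01, 2.50 and 2.23 to -0.46, -1.59, -1.64 and -2.06, a difference of -3.63 ± 0.32, and stood at -0.16 in K562 and 0.24 in SK-N-SH. Those at chr17:43838710, chr17:43685021 and chr9:130203840 differed by -2.09, -1.84 and -1.78, the first by -1.34 by edgeR on summed counts. These 4 had HepG2 levels below the summed controls and GM12878 levels above them. The median random sequence (-0.54) and negative control (-0.98) also lay below the summed controls in HepG2. Beside these, chr17:43838710 stood at -0.52, chr17:43685021 at -1.12, chr9:130203840 at -1.15 and chr6:27694516 at -1.44.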

How the data were processed

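Barcode counts per construct were deposited by the authors as raw counts, per the file headers, for 4 RNA libraries per line and 4 plasmid libraries that both lines share. The authors' plasmid column, a signal value per construct, was the average of those 4 plasmid counts in 100% of rows. Aligner, barcode association and genome build are not given in the sources used here. Of 139325 rows, 19325 reference-allele versions and 3169 rows without counts were dropped, and 4380 constructs fell under the plasmid minimum of 20. Of 3865 reference alleles in the names, 949 (24.6%) match hg38 at the named position, so hg38 was not used.

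Constructs were tested with edgeR 4.0.16 (quasi-likelihood, offsets from summed controls per enhancer), and elements and loci with limma 3.58.1 on log2 values with a pseudocount of 1. Class medians, motif-effect medians and enhancer output were tested with exact permutation tests, which enumerated all splits of 4 against 4 libraries in Python 3.11.15. Adjusted p-values are Benjamini-Hochberg over all features tested, threshold 0.05. Elements were named by size: the 12 largest in each direction among those past the threshold without overlap of libraries and with plasmid means of at least 100 beside each enhancer, the largest construct per enhancer and direction by the same rule, 6 loci and 4 positive controls per direction past the threshold, none from chromosome 8. The members and lists were chosen with earlier results of these data known. Scripts were tested on simulated data. Alternatives were other scalings, pseudocounts, plasmid minimums, enhancers or replicates left out, a replicate block, sample weights, all 16 RNA libraries of the genome-wide library, limma voom and DESeq2 1.42.0. K562 and SK-N-SH levels were computed the same way and shown without a test.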

Additional observations from a re-analysis of the deposited data

Results flagged for a closer look

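In groups of 4 libraries, 1 library stood apart from the other 3 in 5 of 80 groups checked, and chance alone marks about 1 group in 20. GM12878 replicate 1 had the lowest median motif effect over the 5 enhancers (-0.190). HepG2 replicate 2 had the lowest output of En02 (-2.81), and GM12878 replicate 1 the highest output of En09 (-0.20). HepG2 replicate 1 was the highest for the motif window chr10:105554031-105554231 (3.31), and HepG2 replicate 3 the highest for the alternate-allele version of chr9:138863922-138864122 (-4.03).

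The motif effect, native minus scrambled, differed between the lines by a test of the difference itself in the following cases. The median over loci differed, as HepG2 minus GM12878, by -0.052 over the mean of the enhancers, -0.20 beside En02, 0.054 beside En09, -0.24 beside En11, -0.040 beside En19 and 0.050 beside En21. A lower effect in HepG2 was called at chr3:44574417-44574617 (-3.87), chr1:170084155-170084355 (-3.34), chr2:21125125-21125325 (-3.28), chr3:68355810-68356010 (-3.18), chr12:110174534-110174734 (-2.90) and chr19:46455898-46456098 (-2.88). A higher effect in HepG2 was called at chr10:6321581-6321781 (3.46), chr20:31133033-31133233 (2.84), chr2:109039982-109040182 (2.45), chr2:191871808-191872008 (2.22), chr20:30301174-30301374 (1.99) and chr11:95832061-95832261 (1.98).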

How the results depend on the processing

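TMM over all constructs called 51695 constructs and total counts 50332, against 33254; neither levels the enhancers. DESeq2 called 41291 and left 2730 without an adjusted p. edgeR on counts summed over enhancers called 12868 elements against 8435. It was scaled by the controls of all enhancers together, so it does not level the enhancers either, and enhancers with high counts weigh most in it. Leaving out En02 and En11 together, added after seeing the data, gave 10748 elements. With each library centred on its median control level the class medians differed by 0.035 for motif windows, 0.11 for scrambled versions, 0.051 for alternate alleles and 0.26 for windows without the motif. With negative controls only they differed by 0.11, 0.18, 0.12 and 0.33. Scrambled versions stood at -0.069 without En02. At a plasmid minimum of 100 the class contrasts with motif windows were 0.19 for windows without the motif, 0.083 for scrambled versions, 0.95 for positive controls and -0.090 for negative controls, each with an adjusted exact permutation p of 0.0429. The median motif effect over enhancers differed by -0.013 without En11. En09 output differed by -0.090 with negative controls only, and with all constructs En02 output by 0.086 and En11 output by -0.093.

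Loci with a different motif effect numbered 164 without En02, 218 without En19 and 179 with the replicate number as a block, against 390. Same-numbered libraries of the 2 lines share only a number: the correlations of their deviations lay between -0.041 and 0.0006, and over all 16 pairings between -0.041 and 0.027. The block gave 31751 constructs and 7294 elements. Leaving out each replicate gave 27293 to 33399 constructs, 7153 to 8256 elements and 170 to 352 loci; with 3 libraries in a line no exact permutation p goes below 0.0571. Beside En02 and En11 low counts limit the differences of single constructs. Of the named items, 11 calls at 5 loci were lost in an alternative and none turned its sign, while 12 of the 32 named elements and positive controls moved by over 1.5 times, 9 by edgeR on summed counts and 6 without En02 and En11.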
